A study of Homo sapiens with 6 samples.

Results

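The proteasome genes measured here were all genes whose symbol names a subunit or dedicated factor of the proteasome (PSMA, PSMB, PSMC, PSMD, PSME, PSMF and PSMG with a number) together with POMP, a chaperone of core assembly. They numbered 49 of the 35993 genes listed, and they were chosen by symbol, with no measured value in the rule. This family and the gene lists used below were, however, picked with earlier results of these data known. RNA was sequenced from MIA PaCa-2, an established human pancreatic carcinoma line, in 3 untreated libraries and 3 libraries of cells given 4 µM rhCYGB for 48 h. rhCYGB is recombinant human cytoglobin, a globin that binds heme, made with a histidine tag in E. coli and added to the medium. Neither group carries a labelled genetic change, and both were grown in DMEM with 10% FBS and 2.5% horse serum and moved to medium with 1% FBS before the treatment. The untreated libraries carry no label of a vehicle or of a control protein, so the effect of CYGB and that of adding any such protein preparation cannot be told apart. The paper says in general that experiments were repeated, but neither it nor the labels say that the libraries of a group came from separate cultures. The p-values then measure only the spread between these libraries, which may be technical.

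The proteasome is the protease that degrades proteins tagged with ubiquitin. Its barrel-shaped core stacks rings of alpha subunits, which gate the entrance, around rings of beta subunits, of which PSMB5, PSMB6 and PSMB7 cut the chain. A regulatory particle caps the core: its base holds a ring of ATPases (PSMC1 to PSMC6) that unfold the substrate, and its lid takes the ubiquitin off. Interferon can replace the cutting subunits with PSMB8, PSMB9 and PSMB10, which form the immunoproteasome, and the activators PSME1 and PSME2 can take the place of the regulatory particle. Tumor cells depend on this machinery, and the transcription factor NFE2L1 is known to raise subunit genes together when proteasome activity is low, through antioxidant response elements in their promoters.

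As examples, the 250 bases before the start site of 4 members that fell are printed below, 5′ to 3′ on the strand of the gene. They come from RefSeq on GRCh38.p14, and their part in the results was not tested. PSMB9 had the largest decrease of the 47 tested members and PSMD12 the largest decrease in the lid, and each holds the core of an antioxidant response element, TGACNNNGC. PSMD9, PSME4 and PSMG2, which rose, also hold this core and are not printed. PSMB10 holds the core of an interferon-stimulated response element, GAAA and again GAAA after 2 free bases, and PSME2 holds both. Capitals mark these matches, searched on both strands, and the match of PSMB9 lies on the opposite strand. The windows are chr6:32853942-32854191 on the plus strand for PSMB9, chr17:67366578-67366827 on the minus strand for PSMD12, chr16:67936851-67937100 on the minus strand for PSMB10 and chr14:24146611-24146860 on the minus strand for PSME2.
PSMB9: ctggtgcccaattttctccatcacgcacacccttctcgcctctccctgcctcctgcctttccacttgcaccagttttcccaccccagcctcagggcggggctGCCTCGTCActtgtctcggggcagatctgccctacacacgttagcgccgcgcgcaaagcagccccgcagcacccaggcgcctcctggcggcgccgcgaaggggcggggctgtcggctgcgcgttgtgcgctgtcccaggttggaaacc
PSMD12: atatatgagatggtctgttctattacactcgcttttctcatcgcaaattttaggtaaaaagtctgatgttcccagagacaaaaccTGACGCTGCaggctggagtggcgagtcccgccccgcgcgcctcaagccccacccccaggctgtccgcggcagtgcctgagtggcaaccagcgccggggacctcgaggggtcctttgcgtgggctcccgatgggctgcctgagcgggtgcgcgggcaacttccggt
PSMB10: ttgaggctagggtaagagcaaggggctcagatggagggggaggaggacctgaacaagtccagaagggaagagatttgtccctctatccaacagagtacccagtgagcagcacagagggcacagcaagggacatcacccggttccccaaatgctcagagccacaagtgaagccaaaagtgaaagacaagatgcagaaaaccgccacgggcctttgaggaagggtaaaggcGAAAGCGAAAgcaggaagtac
PSME2: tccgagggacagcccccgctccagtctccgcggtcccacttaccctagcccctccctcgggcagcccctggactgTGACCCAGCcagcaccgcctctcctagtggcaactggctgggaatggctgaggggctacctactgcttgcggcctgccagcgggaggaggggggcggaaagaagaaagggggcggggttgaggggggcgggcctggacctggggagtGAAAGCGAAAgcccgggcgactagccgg

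The antioxidant core begins 148, 165 and 175 bases before the start site in PSMB9, PSMD12 and PSME2. PSMB10 and PSME2 carry the same letters of the interferon core, GAAAGCGAAA, which begin 21 and 28 bases before their start sites. A promoter entry was found for 43 of the 49 members. TGACNNNGC occurred in 13 of these 43 genes (30.2%), against 13.2% of all 27305 genes with an entry. The 13 genes were PSMA4, PSMB3, PSMB9, PSMC5, PSMD3, PSMD5, PSMD9, PSMD12, PSME1, PSME2, PSME4, PSMG1 and PSMG2. In PSMA4, PSMC5 and PSMG2, which have several start sites, the match lies before only 1 of them. In PSMG2 it lies before the start of transcript variant 2, which made 0.721% of the gene's FPKM untreated and 0.777% with rhCYGB, and the window before the predominant variant 1 holds no match. The interferon core occurred in 5 (11.6%), namely PSMA4, PSMB4, PSMB10, PSME2 and PSMG4, against 3.71% of all genes. In PSMA4 the interferon core, too, lies before only 1 of the start sites. CCAAT, the box bound by nuclear factor Y, occurred in 19 (44.2%) against 37% of all genes. The ATF4-type core TGATGNAA and the heat shock element (GAA, TTC and GAA, each parted by 2 free bases) occurred in 0 of the 43, against 3.89% and 0.557% of all genes. Matches are descriptions of letters in these windows and not of bound sites.

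The 6 libraries held between 34838399 and 42271299 counts on genes. CYGB itself was at 0 counts in all 6, the protein being added from outside. KRT8, KRT18 and VIM, which MIA PaCa-2 cells express, reached a summed level of 5549 to 6289 FPKM, while the 3 acinar markers were at 0 and the highest fibroblast marker count was 10. Of the leukocyte markers, which matter for the immunoproteasome, PTPRC and CD3E were at 0, and the summed FPKM of the list ran from 2.55 to 2.86 in untreated libraries and from 0.0787 to 0.225 in rhCYGB libraries, nearly all of it CD14. Of 3 endothelial markers, PECAM1 was at 0 and VWF did not exceed 8 counts, but CDH5 had 4438 to 5428 counts untreated and 390 to 465 after rhCYGB. The part of these markers in the results was not tested.

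Which proteasome genes changed after rhCYGB was asked first over all members. Of the 49, 47 had enough counts to be tested. PSMA8, the alpha subunit of the testis, and PSMB11, the beta subunit of the thymus, had 0 counts in every library, against a floor of 3 counts that corresponds to 0.0669 to 0.0902 CPM. CPM are counts relative to the scaled library size, and they are used below to compare a gene between groups. Of the 47, 30 fell and 10 rose at an adjusted p under 0.05, from the quasi-likelihood F test of edgeR with p-values adjusted by Benjamini-Hochberg over the 14728 genes kept, and 7 passed in neither direction. In shares, 63.8% of the members fell against 38.6% of all genes tested, and 21.3% rose against 39% of all genes. Calls in either direction covered 77.6% of all genes. The median log2 fold change of the members was -0.25, beside -0.0046 for all genes tested. The members together held 0.626 to 0.635% of all counts in untreated libraries and 0.484 to 0.496% in rhCYGB libraries, with no overlap between the groups. In RNA from whole cultures, fewer cells of a kind and less RNA per cell cannot be told apart.

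The changes were mostly small. Only PSMB9, PSMD10 and PSMB2 fell by 2-fold or more, which is 3 of 47, while 14.7% of all genes did so. None of the 47 rose by 2-fold, against 12.4% of all genes. The libraries of the groups did not overlap for 41 of the 47 members, 30 of them lower and 11 higher, beside 39.7% and 39.8% of all genes. With libraries scaled by total counts, which moves the median of all genes to -0.169, the members split into 36 lower and 5 higher, and with upper-quartile factors, at a median of -0.146, into 36 and 7. In this order, 87.8% and 83.7% of the called members were lower, beside 59% and 57.6% of all called genes.

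**Figure D1:**
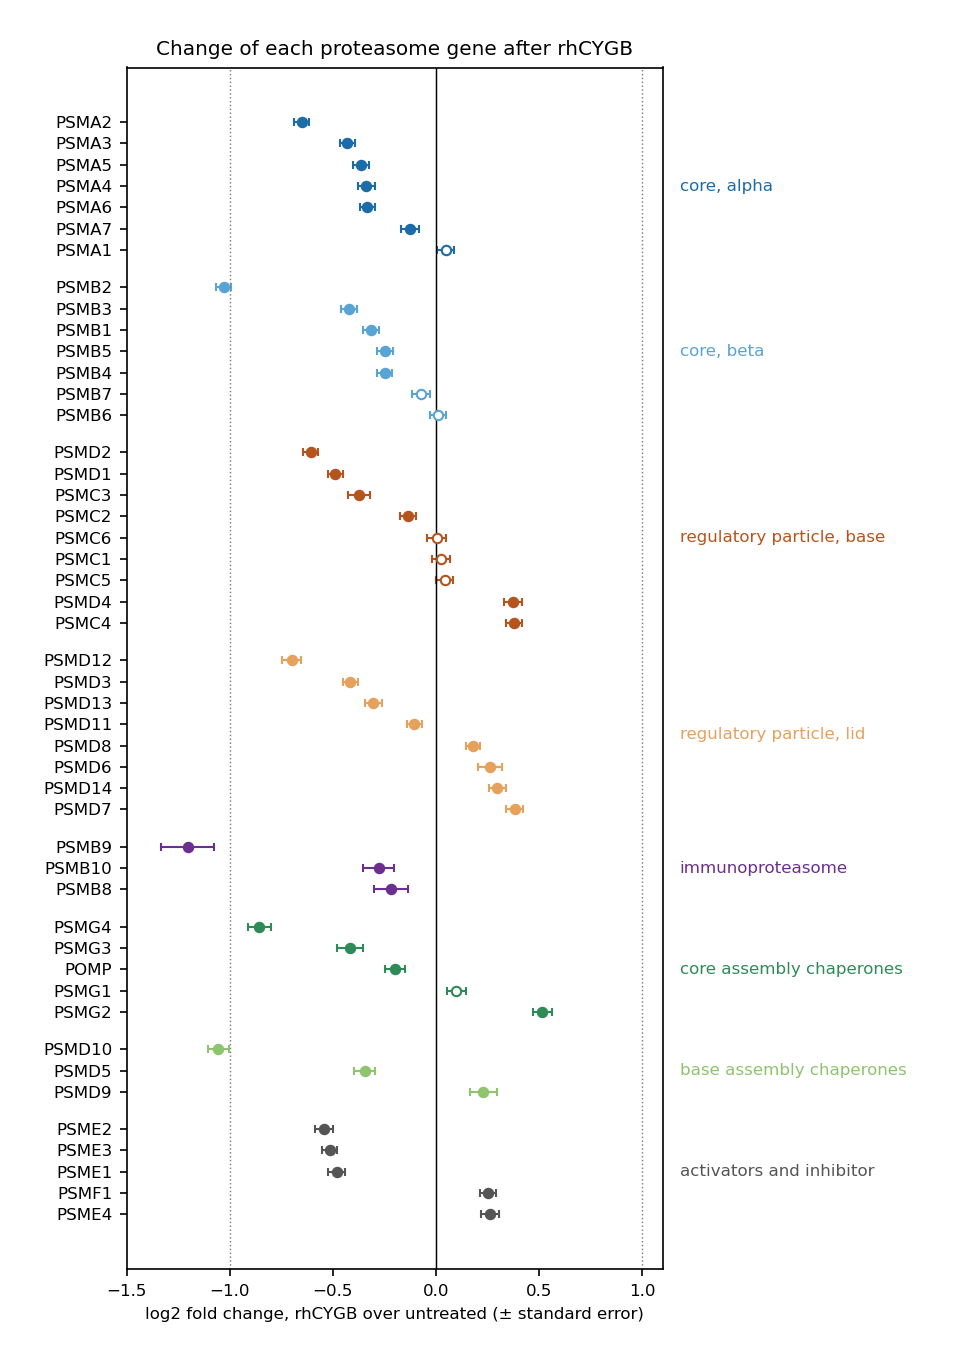
Log2 fold change of each of the 47 tested members after rhCYGB, by role, with the standard error as the bar. Filled points passed an adjusted p under 0.05, open points did not, and dotted lines mark a 2-fold change. The filled core and immunoproteasome points all lie left of 0, the open core points lie near 0 up to 0.046 for PSMA1, and the base and lid spread to both sides.

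The core particle was lower as a group. Of its 14 constitutive subunits, 11 fell, 0 rose and 3 were not called, and the median log2 fold change was -0.32. In shares, 78.6% fell and 0% rose, beside 38.6% and 39% of all genes tested. By DESeq2, and at an unadjusted p under 0.05 in edgeR, 0 rose as well. Among the 7 alpha subunits, which form the outer rings and their gate, 6 fell with a median of -0.34. PSMA2 fell most, from 156, 159 and 158 CPM in untreated libraries 1 to 3 to 104, 99.0 and 98.3 CPM in rhCYGB libraries 1 to 3. Every rhCYGB library was thus below every untreated library, with a log2 fold change of -0.65 ± 0.038 (SE, n = 3 per group, adjusted p = 3.26e-10 by edgeR). PSMA3, PSMA4, PSMA5 and PSMA6 fell by 0.33 to 0.43 on the log2 scale, and PSMA7 by 0.13. PSMA1 was the alpha subunit that was not called, at 126, 124 and 134 CPM untreated against 137, 127 and 133 CPM with rhCYGB, and its groups overlapped (log2 fold change 0.046 ± 0.042, adjusted p = 0.335 by edgeR).

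The 7 constitutive beta subunits form the inner rings, and 5 of them fell with a median of -0.25. PSMB2, a beta subunit with no cutting site, was at 180.2, 182 and 181 CPM untreated and at 90.2, 87.5 and 88.0 CPM with rhCYGB. The libraries within each group were nearly equal and the groups lay 2.04-fold apart (log2 fold change -1.03 ± 0.036, adjusted p = 1.02e-12 by edgeR). The other structural subunits PSMB1, PSMB3 and PSMB4 fell less, with log2 fold changes of -0.32, -0.42 and -0.25. The position of PSMB2 in the authors' table, which names no genome build, is chromosome 1 from 36065142 to 36107127, and no other listed gene overlaps it there.

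The 3 cutting subunits of the constitutive core moved little. PSMB5, which cuts after hydrophobic residues, was at 160.5, 163 and 158 CPM untreated and at 139, 137 and 129.6 CPM with rhCYGB, so it fell without overlap (log2 fold change -0.25 ± 0.039, adjusted p = 2.8e-05 by edgeR). PSMB6, which cuts after acidic residues, was at 110.02, 114 and 108 CPM untreated and at 115, 109.9 and 109 CPM with rhCYGB. PSMB7, which cuts after basic residues, was at 172, 184 and 166 CPM untreated and at 167, 169 and 159.7 CPM with rhCYGB. For both of them the groups overlapped, and neither was called (log2 fold changes 0.0080 ± 0.040 and -0.073 ± 0.044, adjusted p = 0.863 and 0.139 by edgeR). With total-count scaling all 14 core subunits were lower, which includes PSMA1, PSMB6 and PSMB7. Of all genes called with that scaling, 59% were lower.

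Of the 17 members of the regulatory particle 8 fell, 6 rose and 3 were not called, with a median log2 fold change of 0.0019. These are 47.1% lower and 35.3% higher, near the shares of all genes tested (38.6% and 39%). Scaling by total counts or by upper-quartile factors gave 11 lower and 4 higher. With either, 73.3% of the called members of the particle were lower, beside 59% and 57.6% of all called genes. With the scaling used above these shares were 57.1% and 49.8%, so the nearness to all genes depends on the scaling. In the base, PSMD2 and PSMD1 are the large scaffold subunits that dock ubiquitin receptors and shuttles, and both fell. PSMD2 was at 458, 456 and 468 CPM untreated and 297, 299.9 and 309 CPM with rhCYGB. It was the most counted member, and no rhCYGB library came near the untreated ones (log2 fold change -0.61 ± 0.034, adjusted p = 2.43e-10 by edgeR). PSMD1 had a log2 fold change of -0.49. PSMD4, a ubiquitin receptor, rose with a log2 fold change of 0.37.

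The ATPase ring did not move as one. PSMC4 rose from 113, 108 and 106 CPM to 145, 142 and 138 CPM, with no overlap (log2 fold change 0.38 ± 0.039, adjusted p = 3.39e-07 by edgeR). PSMC3 and PSMC2 fell, with log2 fold changes of -0.37 and -0.13. The other three were not called, and their groups overlapped. PSMC1 was at 147, 145 and 139 CPM untreated and 155, 139.7 and 143 CPM with rhCYGB, PSMC5 at 134, 126 and 128 CPM against 132, 137 and 129 CPM, and PSMC6 at 76.1, 81.7 and 80.3 CPM against 84.1, 78.1 and 76.3 CPM. Their log2 fold changes were 0.024 ± 0.044, 0.041 ± 0.040 and 0.0019 ± 0.048, with adjusted p-values of 0.629, 0.356 and 0.973 (edgeR). PSMC1 has a pseudogene, PSMC1P1, with 5.58% of its counts. In the authors' table PSMC1 overlaps NRDE2 and PSMC5 overlaps FTSJ3, so reads could be split or shared there. PSMA3, PSMB7, PSMD14, PSME1 and PSMG2 also overlap genes with counts. For PSMG2 this is CEP76, at 12.5 CPM untreated and 9.94 CPM with rhCYGB.

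In the lid, 4 of 8 members fell and 4 rose, beside 38.6% and 39% of all genes tested, with a median of 0.037. PSMD7 and PSMD14 form the pair of related subunits that cleaves ubiquitin from the substrate, PSMD14 being the enzyme, and both rose. PSMD7 was at 133, 134 and 141 CPM untreated and at 185, 174 and 171 CPM with rhCYGB, without overlap (log2 fold change 0.38 ± 0.041, adjusted p = 5.25e-07 by edgeR). PSMD14, PSMD6 and PSMD8 followed with log2 fold changes of 0.30, 0.26 and 0.18. PSMD12, a scaffold subunit of the lid, went the other way, from 92.8, 99.0 and 99.1 CPM to 57.4, 60.3 and 61.4 CPM (log2 fold change -0.70 ± 0.045, adjusted p = 1.26e-09 by edgeR). PSMD3, PSMD13 and PSMD11 fell with log2 fold changes of -0.42, -0.30 and -0.11. PSMD6 and PSMD8 were no longer called with total-count or upper-quartile scaling, and with limma on log2(FPKM + 1) PSMD14 was not called either, at 0.13 (adjusted p = 0.0506).

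**Figure D2:**
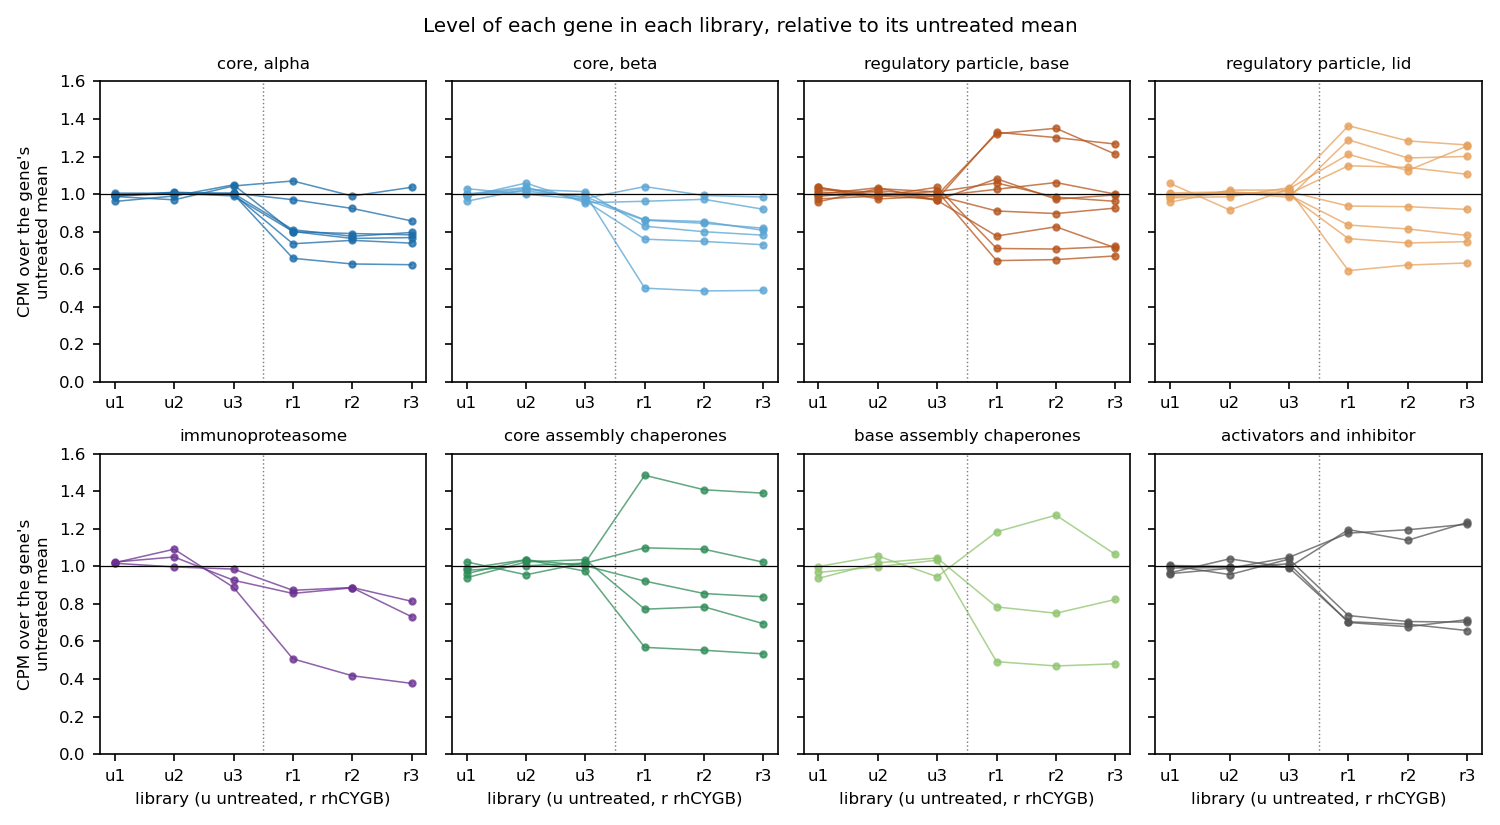
CPM of each member in each library divided by its untreated mean, in 1 panel per role (u, untreated; r, rhCYGB). Each line joins the libraries of 1 gene, whose order carries no meaning. The untreated points stay near 1, and the rhCYGB points of the core lie mostly below it, while those of the base and lid fan out.

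The core and the regulatory particle were also compared as sums, which were chosen after the values were seen and carry no test. FPKM, in which the authors scaled fragments to transcript length and depth, allow levels of different genes to be compared. The summed FPKM of the 14 core subunits was 1.69, 1.73 and 1.70 times that of the 17 regulatory subunits in untreated libraries. It was 1.44, 1.43 and 1.43 times as high in rhCYGB libraries. On counts the same ratio went from 0.914, 0.928 and 0.909 to 0.800, 0.791 and 0.786. Both scales placed every rhCYGB library below every untreated library, and as a ratio within a library this does not depend on how libraries are scaled.

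On FPKM the levels within the core were far from equal. PSMB4 was the highest member at 293 ± 6.20 FPKM untreated (SD, n = 3) and 220 FPKM with rhCYGB, followed by PSMA7 at 235 and 192 FPKM. PSMA5, PSMA4 and PSMB2 were the lowest core members, at 28.2, 36.7 and 38.1 FPKM untreated and at 19.6, 25.7 and 16.7 FPKM with rhCYGB. The spread from lowest to highest core subunit was 10.4-fold untreated and 13.2-fold with rhCYGB. FPKM divide by transcript length. The transcripts that made most of PSMA5, PSMA4 and PSMB2 have 3815, 4378 and 4426 bases, against 918 for PSMB4. On CPM PSMB2 averaged 181 untreated, above PSMB5 at 161 and PSMB6 at 111, so the order differs between FPKM and CPM. The part of length in the FPKM spread was not tested. The last places of all 47 were held by PSMB8 and PSMB9, at 9.98 ± 0.112 and 9.95 ± 0.965 FPKM untreated, which did not differ beyond their spread. With rhCYGB they stood apart, at 7.28 and 3.84 FPKM.

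The immunoproteasome subunits were low and all 3 fell, beside 38.6% of all genes tested, with a median log2 fold change of -0.28. PSMB9, which replaces PSMB6, was at 11.1, 11.9 and 9.66 CPM untreated and at 5.52, 4.54 and 4.10 CPM with rhCYGB. Each rhCYGB library was well below the lowest untreated library, and the 2.30-fold difference was the largest of all members (log2 fold change -1.20 ± 0.13, adjusted p = 4.51e-07 by edgeR). In the authors' table PSMB9 lies on chromosome 6 from 32821969 to 32827628. PSMB10, which replaces PSMB7, was at 30.0, 30.7 and 27.1 CPM untreated and 25.1, 25.9 and 21.4 CPM with rhCYGB (log2 fold change -0.28 ± 0.075, adjusted p = 0.00316 by edgeR). PSMB8, which replaces PSMB5, was at 12.7, 12.4 and 12.3 CPM untreated and 10.9, 11.1 and 10.1 CPM with rhCYGB (log2 fold change -0.22 ± 0.083, adjusted p = 0.0243 by edgeR). These last differences were small but without overlap, and the call of PSMB8 was lost without untreated library 1 or 2 or rhCYGB library 3. PSMB8 overlaps the antisense gene PSMB8-AS1, which averaged 2.03 CPM untreated and 0.512 CPM with rhCYGB.

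Each immunoproteasome subunit was then set against the constitutive subunit whose place it takes. PSMB9 stood at 8.16, 8.44 and 7.26% of the FPKM of PSMB6 in untreated libraries and at 3.87, 3.33 and 3.03% in rhCYGB libraries. The log2 ratio differed by -1.23 (exact permutation test, two-sided, p = 0.1, adjusted p = 0.15 over 3 pairs), and 0.1 is the smallest p that 3 against 3 libraries allow. PSMB10 stood at 17.6, 16.8 and 16.5% of PSMB7 and at 15.1, 15.4 and 13.5% with rhCYGB, a difference of -0.21 in the log2 ratio (exact permutation test, p = 0.1, adjusted p = 0.15). PSMB8 stood at 7.12, 6.83 and 7.04% of PSMB5 and at 6.69, 7.00 and 6.67% with rhCYGB, and these groups overlapped (difference -0.044, exact permutation test, p = 0.2, adjusted p = 0.2). From read counts the difference of PSMB8 over PSMB5 was 0.029, so its direction was not stable. Together the 3 immunoproteasome subunits made 10.2, 10.1 and 9.61% of the FPKM of all 6 catalytic subunits untreated and 8.28, 8.43 and 7.56% with rhCYGB.

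**Figure D3:**
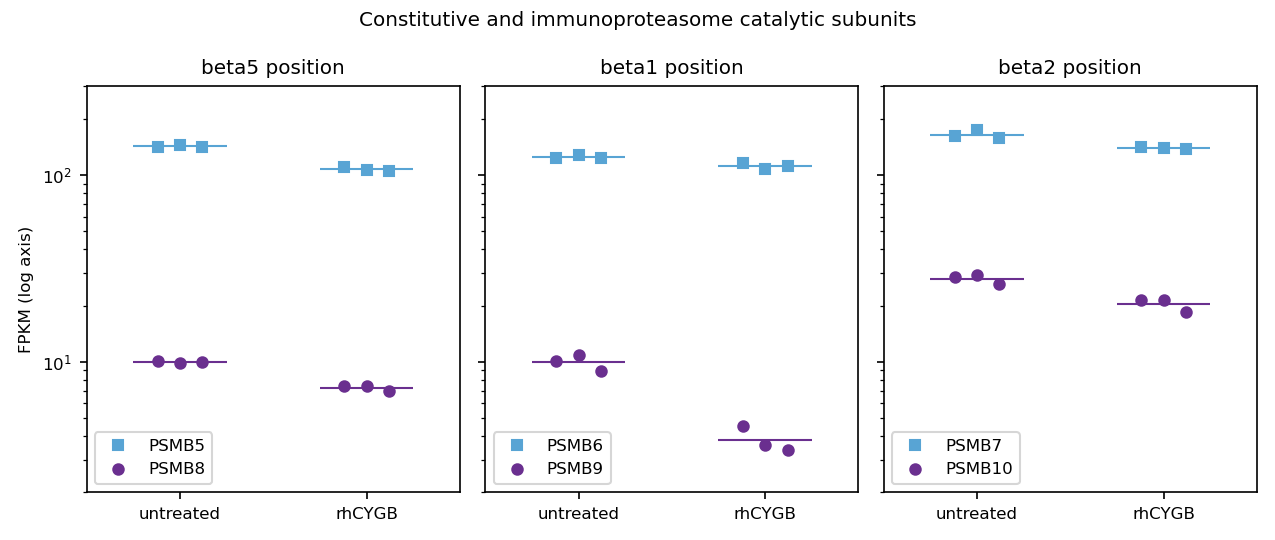
FPKM on a log axis of the 3 constitutive catalytic subunits (squares) and the immunoproteasome subunits that replace them (circles), with 1 point per library and a line at the group mean. The gap between circle and square widens with rhCYGB at the beta1 position, from 9.95 to 3.84 FPKM for PSMB9, and hardly at the beta5 position.

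Genes of interferon signaling, which switches the immunoproteasome on, and of antigen presentation were mixed. Of 10 genes, 4 rose, 4 fell and 2 were not called, with a median log2 fold change of -0.011. These are 40% higher and 40% lower, near the shares of all genes tested (39% and 38.6%). IFNGR1, a chain of the interferon gamma receptor, rose from 24.9, 25.8 and 26.0 CPM to 40.2, 35.0 and 38.8 CPM (log2 fold change 0.57 ± 0.060), and JAK1, its kinase, from 101, 103 and 107 CPM to 152, 153 and 153 CPM (log2 fold change 0.56 ± 0.037). Both had no overlap between groups. TAP2, a chain of the peptide transporter that feeds antigen presentation, fell with a log2 fold change of -0.49 ± 0.048, and NLRC5, the activator of class I genes, with -0.47 ± 0.14. IRF1, a transcription factor of the response, rose with a log2 fold change of 0.53. TAP1, the neighbor of PSMB9 and the other chain of the transporter, was chosen after its values were seen, and it was at 63.6, 61.5 and 59.9 CPM untreated and 62.7, 61.3 and 62.9 CPM with rhCYGB (log2 fold change 0.017 ± 0.044, adjusted p = 0.74 by edgeR).

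Assembly of the core needs dedicated chaperones, and 3 of these 5 fell, 1 rose and 1 was not called. Of all genes tested, 38.6% fell and 39% rose. PSMG1 and PSMG2 act as a pair on the alpha ring, and so do PSMG3 and PSMG4. PSMG2 rose from 57.8, 53.9 and 57.6 CPM to 83.8, 79.5 and 78.4 CPM (log2 fold change 0.51 ± 0.047, adjusted p = 7.03e-08 by edgeR), the largest rise of all members. Its partner PSMG1 was at 55.2, 56.7 and 57.5 CPM untreated and 62.0, 61.6 and 57.7 CPM with rhCYGB, which just failed to overlap but was not called (log2 fold change 0.099 ± 0.046, adjusted p = 0.0647 by edgeR). PSMG4 fell from 34.9, 36.5 and 34.4 CPM to 20.1, 19.5 and 18.8 CPM (log2 fold change -0.86 ± 0.057, adjusted p = 1.67e-09 by edgeR), and PSMG3 fell with a log2 fold change of -0.42. The pairs thus moved in different ways, PSMG3 and PSMG4 down and PSMG2 up. POMP, which places the beta subunits, fell with a log2 fold change of -0.20.

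Of the 3 chaperones of the base, 2 fell and 1 rose, beside 38.6% and 39% of all genes tested. PSMD10, also known as gankyrin, binds the ATPase PSMC4 and is known as an oncoprotein in liver. It was at 50.5, 52.1 and 53.9 CPM untreated and at 25.7, 24.5 and 25.1 CPM with rhCYGB, a 2.08-fold decrease with no overlap (log2 fold change -1.06 ± 0.051, adjusted p = 4.2e-11 by edgeR). In the authors' table it lies on chromosome X from 107327435 to 107334874. PSMC4, its client, rose, so that these binding partners moved in opposite directions. PSMD9 rose from 32.8, 34.6 and 31.0 CPM to 38.9, 41.8 and 34.9 CPM (log2 fold change 0.23 ± 0.067, adjusted p = 0.00581 by edgeR). This call was lost with total-count or upper-quartile scaling and with limma on log2(FPKM + 1) or log2(FPKM + 0.1). PSMD5 fell with a log2 fold change of -0.35.

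Among the alternative activators and the inhibitor, 3 of 5 fell and 2 rose, beside 38.6% and 39% of all genes tested. PSME1 and PSME2 join in the ring that interferon induces, and PSME3 forms the nuclear ring. PSME2 fell from 119, 128 and 122 CPM to 86.5, 84.9 and 80.7 CPM (log2 fold change -0.55 ± 0.043, adjusted p = 1.44e-08 by edgeR), and PSME3 and PSME1 fell by nearly as much, with log2 fold changes of -0.52 and -0.48. PSME4, the large single-chain activator of the nucleus, rose from 80.4, 82.8 and 87.6 CPM to 98.4, 99.9 and 102 CPM (log2 fold change 0.26 ± 0.043, adjusted p = 5.15e-05 by edgeR). PSMF1, which inhibits the core, rose with a log2 fold change of 0.25. The ring activators were thus lower in every rhCYGB library and PSME4 higher. PSME4 and PSMF1, however, were not called with total-count scaling, nor with limma on log2(FPKM + 1) or log2(FPKM + 0.1).

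The members that share a promoter motif did not all move alike. Of the 13 with the antioxidant core, 8 fell, 3 rose and 2 were not called, with a median log2 fold change of -0.35. The 3 that rose were PSMD9, PSME4 and PSMG2, of which PSMG2 has its match before the start of its minor variant. In PSMA4, which fell, and PSMC5, which was not called, the match lies before the most downstream start site only. Variant 1, which made 56.9% and 94.8% of their FPKM untreated, begins farther upstream than their last listed start. All 5 with the interferon core fell, with a median of -0.34, and they span the core (PSMA4, PSMB4), the immunoproteasome (PSMB10), an activator (PSME2) and a chaperone (PSMG4). PSMA4 has this match before only some of its start sites. Over all 43 members with a promoter entry 27 fell and 9 rose, with a median of -0.28, so the direction of the motif groups is to be read beside these counts.

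Of 10 regulators of subunit expression 7 rose, 2 fell and 1 was not called, beside 39% and 38.6% of all genes, with a median log2 fold change of 0.89. MAFF and MAFG, small MAF partners of the NFE2 family on the antioxidant response element, rose most. MAFF went from 30.4, 30.9 and 28.7 CPM to 243, 248 and 234 CPM (log2 fold change 3.01 ± 0.045, adjusted p = 1.91e-16 by edgeR) and MAFG from 52.0, 49.2 and 46.6 CPM to 193, 185 and 191 CPM (1.95 ± 0.045, adjusted p = 1.08e-14 by edgeR). NFE2L1 itself and NFE2L2 rose as well, with log2 fold changes of 1.55 and 1.45, and so did NGLY1 and DDI2, which process NFE2L1 to its active form, with 0.71 and 0.63. The genes that fell were VCP and NFE2L3. VCP, the ATPase that pulls NFE2L1 out of the endoplasmic reticulum and also feeds unfolded substrates to the proteasome, went from 389, 389.99 and 392 CPM to 147, 152 and 154 CPM (log2 fold change -1.37 ± 0.035, adjusted p = 3.64e-14 by edgeR). NFE2L3 went from 55.5, 53.8 and 55.0 CPM to 28.9, 27.8 and 28.9 CPM (-0.94 ± 0.048, adjusted p = 7.77e-11 by edgeR). All 4 of these genes had no overlap between groups.

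**Figure D4:**
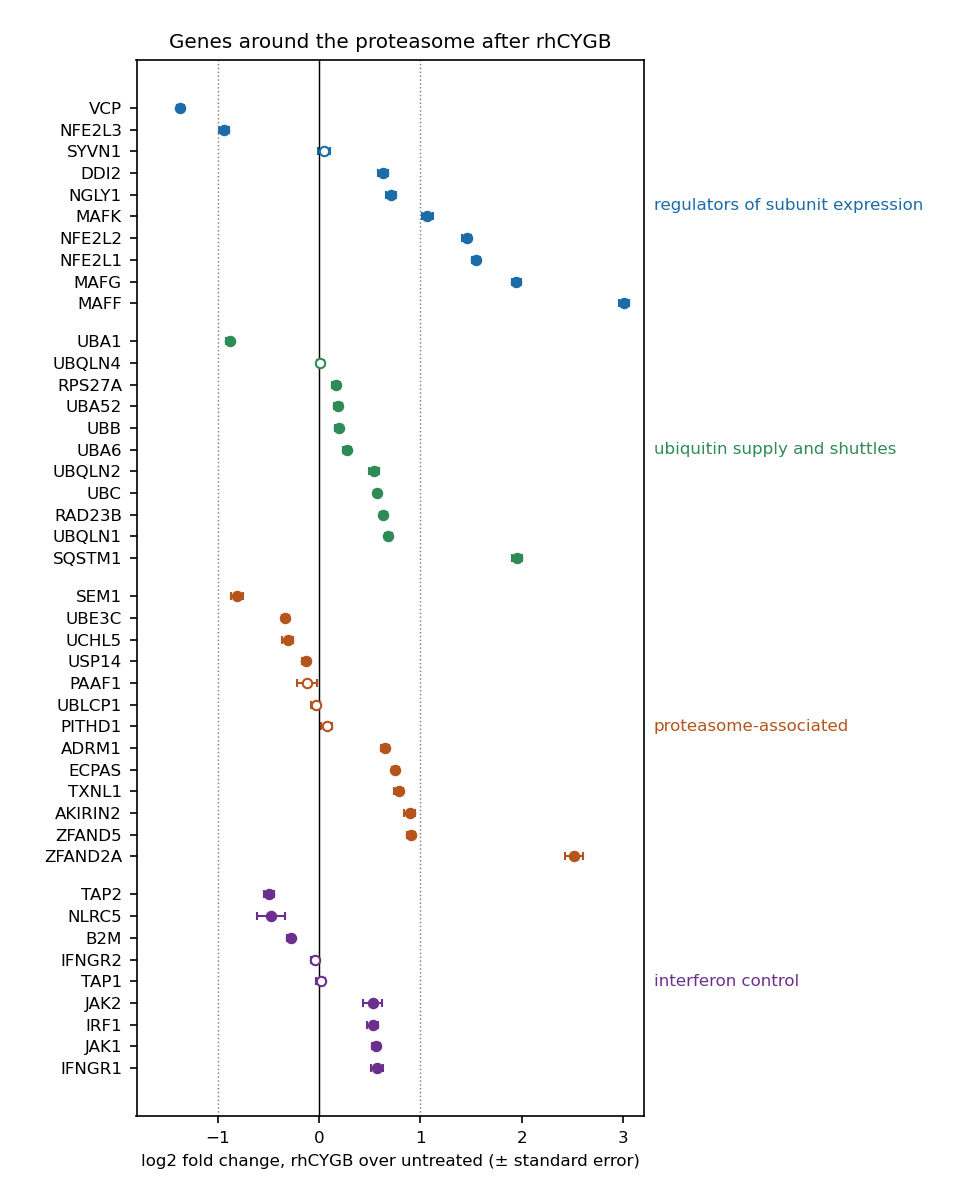
Log2 fold change (± standard error) of genes around the proteasome in 4 lists, with filled points for an adjusted p under 0.05 and dotted lines at a 2-fold change. MAFF at 3.01 and ZFAND2A at 2.52 are farthest to the right, VCP at -1.37 farthest to the left, and the ubiquitin list lies right of 0 except UBA1.

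Genes of ubiquitin supply and of the shuttles that carry substrates to the proteasome were mostly higher. Of 12 genes 10 rose, 1 fell and 1 was not called, with a median log2 fold change of 0.41. In shares, 83.3% rose and 8.33% fell, beside 39% and 38.6% of all genes tested. SQSTM1, a ubiquitin-binding receptor of autophagy, rose from 701, 689 and 604 CPM to 2598, 2627 and 2504 CPM (log2 fold change 1.95 ± 0.048, adjusted p = 2.04e-14 by edgeR). UBA1, the enzyme that activates ubiquitin, was the gene that fell, from 1000.2, 1011 and 1014 CPM to 539, 551 and 551 CPM (-0.88 ± 0.031, adjusted p = 1.23e-12 by edgeR). With limma on FPKM, 6 of the 12 were higher and 2 lower. Of all genes called, 58.9% were lower with limma on log2(FPKM + 1) and 59.2% on log2(FPKM + 0.1).

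Proteins that associate with the proteasome were mixed, with 6 of 13 genes higher, 4 lower and 3 not called, and a median of 0.075. These are 46.2% higher and 30.8% lower, beside 39% and 38.6% of all genes tested. ZFAND2A, a stress-induced proteasome-binding zinc finger protein, rose from 5.82, 5.09 and 6.79 CPM to 35.7, 33.0 and 32.3 CPM (log2 fold change 2.52 ± 0.090, adjusted p = 1.31e-12 by edgeR). ZFAND5, an activator of the proteasome, rose from 76.9, 76.6 and 76.1 CPM to 145, 141 and 145 CPM (0.91 ± 0.037, adjusted p = 5.3e-12 by edgeR). SEM1 and UBE3C fell most. SEM1, the smallest lid subunit, whose symbol is outside the rule, went from 81.9, 81.3 and 75.7 CPM to 44.6, 49.8 and 42.3 CPM (-0.81 ± 0.058, adjusted p = 4.73e-09 by edgeR), and UBE3C, a proteasome-bound ubiquitin ligase, from 180.4, 183 and 187 CPM to 150.4, 144 and 143 CPM (-0.33 ± 0.037, adjusted p = 8.45e-07 by edgeR).

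Transcript variants gave a readout that the gene counts do not hold. The table lists 118 transcripts of the 49 genes, and 16 of the genes have a single one. Of 108 transcripts tested, 30 fell and 12 rose, beside 14.8% and 15.1% of all 32577 transcripts tested. Their counts were far less precise than gene counts, with a common dispersion of 0.483 over all transcripts against 0.003 over all genes. Only 2 transcripts were called against the direction of a gene that was itself called, transcript variant 2 of PSMA5 and variant 4 of PSME3. Variant 3 of PSMA1 fell (log2 fold change -1.10 ± 0.25, adjusted p = 0.0245 by edgeR), while its gene, at 0.046, was not called.

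PSMB8 showed a shift between its transcripts. Variant 2 made 80.1, 77.2 and 86.6% of the gene's FPKM in untreated libraries and 48.4, 60.9 and 49.6% in rhCYGB libraries, with no overlap. Its counts fell (log2 fold change -0.98 ± 0.20, adjusted p = 0.0146 by edgeR), while variant 1 had a log2 fold change that did not pass the test (0.95 ± 0.29, adjusted p = 0.0624 by edgeR). In PSMA5, variant 2 made 7.00, 7.21 and 6.22% untreated and 18.8, 20.2 and 14.8% with rhCYGB, and its counts rose (0.95 ± 0.17, adjusted p = 0.0104 by edgeR) although the gene fell. In PSME3, variant 1 made 95.7, 79.5 and 84.3% untreated and 46.5, 86.4 and 54.3% with rhCYGB, so rhCYGB library 2 stood with the untreated ones. Its counts fell (-1.08 ± 0.24, adjusted p = 0.0221 by edgeR), and those of the noncoding variant 4 rose (3.05 ± 0.66, adjusted p = 0.0195 by edgeR).

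Other transcript splits varied as much within a group as between groups. Variant 2 of PSMA6 made 53.3, 0.212 and 0% of the gene untreated and 53.0, 0.577 and 53.8% with rhCYGB (adjusted p = 0.883 by edgeR). Libraries of the same group thus held either most of the gene in this variant or almost none of it. Variant 1 of PSMG1 made 61.9, 62.9 and 70.2% untreated and 16.3, 61.1 and 51.0% with rhCYGB (adjusted p = 0.435 by edgeR). These splits come from the authors' assembly of reads into transcripts, and the gene counts of PSMA6 and PSMG1 did not swing with them. The gene FPKM of PSMG1 did move, at 42.4 in rhCYGB library 1 against 33.1 and 33.7 in rhCYGB libraries 2 and 3.

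**Figure D5:**
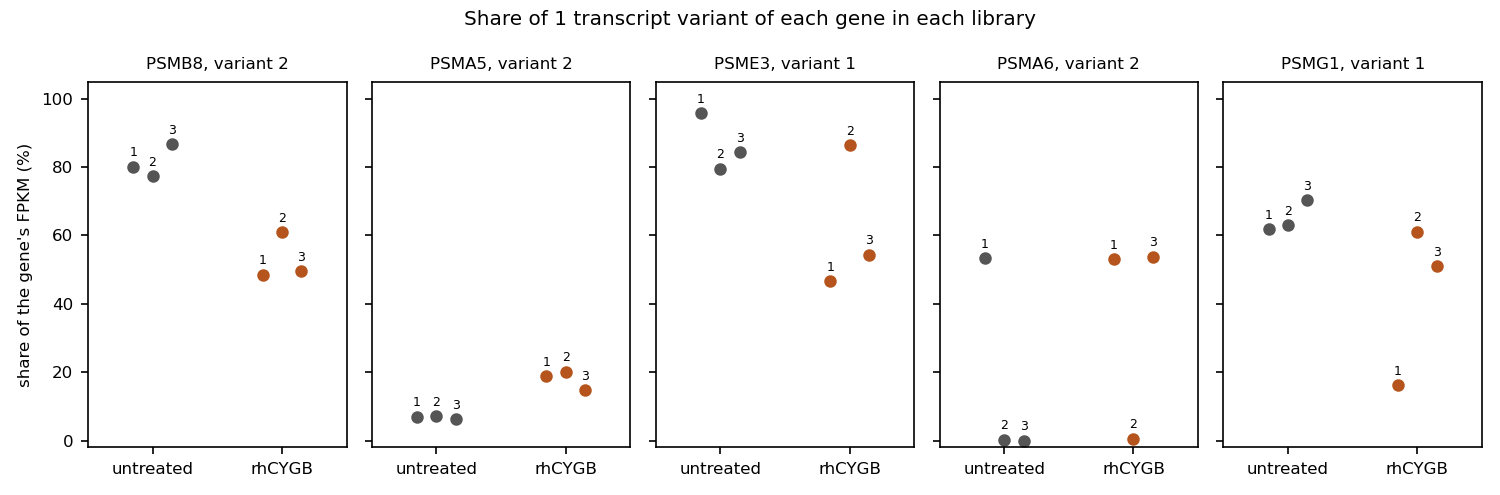
Share of the gene's FPKM, in percent, taken by 1 transcript variant of each of 5 genes, with 1 point per library and its replicate number. The groups are apart for PSMB8 and PSMA5, while PSME3, PSMA6 and PSMG1 have single libraries far from the rest of their group.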

How the data were processed

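RNA-seq data of MIA PaCa-2 cells were analysed, with 3 untreated and 3 rhCYGB libraries assigned from their labels. According to the submitters' processing notes and the methods, the authors checked reads with FastQC 0.11.7, mapped them with HISAT2 2.1.0 and assembled transcripts with StringTie 2.1.3b from a stranded mRNA kit. Whether counting used the strand was not given in the sources used here. Read counts per gene and per transcript, deposited as raw whole numbers, were not normalized by the authors. For FPKM the authors divided by transcript length and mapped reads. The deposited TPM values (12 columns) were not used. The files name no genome build, and the build named in the labels is that of the mouse, so positions are given as in the deposited table, and promoter windows come from RefSeq on GRCh38.p14.

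Genes were tested with edgeR 4.0.16 in R 4.3.3 (filterByExpr, TMM factors, glmQLFit, glmQLFTest, all 6 libraries, Benjamini-Hochberg over 14728 genes or 32577 transcripts). CPM use TMM-scaled library sizes. The floor of 3 counts covers counting error only. Ratios of catalytic subunits from FPKM were compared by exact permutation. Medians and counts of lists are descriptions without a set test. The members and lists were chosen with earlier results of these data known. Values in every library are given for the catalytic subunits, the highest and lowest member of each role, members past 2-fold and members not called or not tested, and, of each list, the 2 highest and 2 lowest genes called, some of which are not reported here. Transcripts are named where they take at least 10% of the gene in a group and were called against the gene or moved by 10 points or more. Within each group all pairs of libraries differed beyond counting error (chi-square over degrees of freedom 4.76 to 6.76), so none was counted as a copy of another. The fits were tested on simulated counts. Alternatives were other size factors, DESeq2 1.42.0, limma 3.58.1 on log2(FPKM + 1) and log2(FPKM + 0.1), other filters, counts summed from transcripts, a replicate block and leaving out each library.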

Additional observations from a re-analysis of the deposited data

How the results depend on the processing

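The choice of scaling moved the results most. The median of all genes tested lay at -0.146 with upper-quartile factors, at -0.169 with total counts, and at -0.0858 and -0.152 with limma on log2(FPKM + 1) and log2(FPKM + 0.1), so values below are to be read relative to these shifts. In this order of settings 57.6%, 59%, 58.9% and 59.2% of all called genes were lower, against 49.8% in the main fit. In the same order the members split into 36, 36, 34 and 33 lower and 7, 5, 4 and 4 higher. The core split into 14, 14, 13 and 13 lower and 0 higher, and the regulatory particle into 11, 11, 10 and 9 lower and 4, 4, 3 and 3 higher. In the same order the median log2 fold change was -0.48, -0.50, -0.51 and -0.52 for alpha subunits, -0.39, -0.42, -0.41 and -0.41 for beta subunits and -0.47, -0.49, -0.49 and -0.50 for the whole core. It was -0.14, -0.16, -0.17 and -0.17 for the base, -0.10, -0.13, -0.12 and -0.13 for the lid and -0.14, -0.16, -0.17 and -0.17 for the regulatory particle. It was -0.34, -0.36, -0.36 and -0.36 for core chaperones, -0.49, -0.51, -0.48 and -0.51 for base chaperones and -0.62, -0.65, -0.65 and -0.65 for activators and inhibitor. For the immunoproteasome total counts and both limma fits gave -0.44, -0.43 and -0.45. The ubiquitin list had 6 higher genes with either limma fit, and 2 lower genes with each of the 4 settings. Of the 7 members not called, PSMB7 stayed lower and was called with all 4 settings, at -0.21 to -0.24. The others changed sign in some. In the same order, PSMA1 had log2 fold changes of -0.096, -0.12, -0.13 and -0.13, PSMB6 of -0.13, -0.16, -0.15 and -0.16, PSMC1 of -0.12, -0.14, -0.12 and -0.12, PSMC5 of -0.10, -0.12, -0.12 and -0.12 and PSMC6 of -0.14, -0.16, -0.17 and -0.17. PSMG1 was at -0.043 and -0.067 with upper-quartile factors and total counts and did not change sign with limma. The limma fits use FPKM, which for PSMG1 stood at 42.4 in rhCYGB library 1 against 33.1 and 33.7 in rhCYGB libraries 2 and 3. DESeq2 size factors, the DESeq2 Wald test and a minimum of 10 counts in every library put PSMB6 at -0.0030, -0.0030 and -0.010 and PSMC6 at -0.0093, -0.0092 and -0.017. From read counts the log2 ratio of PSMB8 over PSMB5 differed by 0.029. Leaving out each library in turn left 27 to 30 members lower and 10 to 11 higher, with a median log2 fold change of -0.34 to -0.30 for the core and -0.032 to 0.033 for the regulatory particle. PSMB6 then ranged from -0.0078 to 0.031, PSMC1 from -0.014 to 0.053 and PSMC6 from -0.032 to 0.033. PSMA7 was no longer called without untreated library 2 or 3 or rhCYGB library 3, PSMD11 without untreated library 2 and PSMB8 without untreated library 1 or 2 or rhCYGB library 3, while PSMG1 was called higher without rhCYGB library 3. Over 17 alternatives 31 of the 47 members kept their direction and their side of the threshold in all. With the replicate number as a block 30 members were lower and 10 higher, the counts of the unblocked fit, and 24 transcripts were lower and 8 higher, against 30 and 12. Deviations of libraries with the same number correlated at -0.048, 0.0072 and 0.0055, so no pairing by number was seen in them. Such correlations cannot exclude that libraries with the same number share a culture or a day, which the labels do not say. Among the tested members PSMB8 and PSMB9 rest on the fewest counts, and transcript shares rest on the authors' assembly. The cause of the differences between settings was not tested.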
